A study of Mus musculus with 10 samples.

Results

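Mitochondrial ribosomal proteins were read as the rows of the deposited expression table whose gene symbol begins with Mrpl or Mrps followed by a number. The rule found 77 genes among the 19213 rows of the table, 48 named Mrpl and 29 named Mrps. RNA was sequenced from fluorescence-sorted islet cells of adult mice, in 2 libraries of delta cells (1 male, 1 female), 3 of alpha cells (2 male, 1 female) and 5 of beta cells (2 male, 3 female). Every animal carried 3 transgenes: mIns1-H2b-mCherry, which marks beta cells, a floxed YFP allele, and either Sst-Cre, which turns YFP on in delta cells, or Gcg-cre, which turns it on in alpha cells. Beta cells came from the same islets as the delta or alpha cells and so carried the same alleles. Islets from groups of 10 to 12 animals were pooled by sex and cultured overnight at 5.5 mM glucose before sorting. Which libraries came from a common pool is not labelled. The p-values therefore reflect the spread among these 10 libraries alone, and part of that spread may be technical.

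The mitochondrial ribosome makes the few proteins encoded in mitochondrial DNA, which are core subunits of the respiratory chain and of ATP synthase. Its ribosomal RNAs come from mitochondrial DNA, while its proteins are encoded in the nucleus, made in the cytosol and imported. The small subunit decodes the messenger RNA and the large subunit joins the amino acids. In beta cells, ATP from mitochondria couples glucose to insulin release. By known place in the ribosome, 26 members belong to the small subunit and 50 to the large subunit, Mrps18a and Mrps30 being large subunit proteins in spite of their names. The remaining member, Mrps36, is now known as a component of the 2-oxoglutarate dehydrogenase complex.

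Levels are RPKM, reads per kilobase of gene and scaled to the library's total reads. Library totals recovered from the table were 20209291 and 18570481 reads for delta cells, 16688097 to 17441439 reads for alpha cells and 17755859 to 26684086 reads for beta cells. Reads of 7 hormone genes made up 9.81% and 10.6% of delta libraries, 27.5% to 30.9% of alpha libraries and 17.6% to 31.8% of beta libraries. Because RPKM are shares of a library, differences were also computed with the hormone reads left out of the total and with libraries scaled by median ratios over genes. Each population carried its own markers, and delta libraries also held transcripts listed as markers of other endocrine cells. Summed over 9 beta cell markers, delta libraries held 31666 and 32448 RPKM, alpha libraries 4461 to 5321 RPKM and beta libraries 266479 to 495065 RPKM. Summed over 8 alpha cell markers, delta libraries held 22123 and 24209 RPKM, alpha libraries 250197 to 279991 RPKM and beta libraries 754 to 3086 RPKM. Ppy and Pyy, listed here as markers of pancreatic polypeptide cells, summed to 44164 and 44798 RPKM in delta libraries, 9597 to 15241 RPKM in alpha libraries and 808 to 1560 RPKM in beta libraries. Which cells these transcripts came from was not tested. None of these 3 lists had a marker at 0 in all libraries of a cell type. The 7 immune markers in the table summed to 75.6 and 88.7 RPKM in delta libraries, where 2 of them were at 0, 22.6 to 41.3 RPKM in alpha libraries and 102 to 186 RPKM in beta libraries. Against beta cells, 4 of the 5 tested fell in delta cells while 1, C1qa, rose, and all 5 fell in alpha cells. C1qa was also higher in delta cells than in alpha cells. Over all genes tested, 13.3% fell and 37.4% rose in delta cells, and 30.3% fell and 23.7% rose in alpha cells. The exocrine markers varied widely within a cell type: 9 acinar markers summed to 846 and 1022 RPKM in delta libraries, 93.1 to 3224 RPKM in alpha libraries and 206 to 10250 RPKM in beta libraries, and 0 of the 9 were called in any comparison of cell types. Summed over 5 ductal markers, delta libraries held 326 and 396 RPKM, alpha libraries 829 to 1928 RPKM and beta libraries 538 to 703 RPKM. The 5 endothelial markers reached at most 5.03 RPKM in any library and the 5 stellate and mesenchymal markers at most 2.88 RPKM, an alpha library's sum, and 0 of the acinar, ductal, endothelial or stellate markers were at 0 in all libraries of a cell type. The part of other cells in the results below was not tested.

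All 77 members passed the filter on low values, and 76 had at least 1 RPKM in each of the 10 libraries. The median of the members' means over libraries was 19.7 RPKM, with quartiles of 12.3 and 31.6 RPKM, and the highest mean was 70.9 times the lowest. The highest belonged to Mrpl52 (chr14:54426909-54429756), a large subunit protein specific to mitochondria. It had 60.3 and 65.4 RPKM in delta libraries, 69.8, 60.1 and 47.3 RPKM in alpha libraries, and 72.6, 64.8, 58.5, 65.0 and 61.7 RPKM in beta libraries. Its ranges overlap, and it passed the test in no comparison. Mrpl54 of the large subunit averaged 53.5 ± 1.21 RPKM in delta cells, 45.2 ± 2.29 RPKM in alpha cells and 70.3 ± 13.2 RPKM in beta cells (SD, n = 2, 3 and 5). Mrps21 of the small subunit averaged 53.3 ± 2.20 RPKM in delta cells, 49.7 ± 7.68 RPKM in alpha cells and 65.8 ± 5.03 RPKM in beta cells.

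The lowest member was Mrpl23 (chr7:142532686-142540747), a protein at the exit of the large subunit's peptide tunnel. It had 0.765 and 1.11 RPKM in delta libraries, 0.690 to 1.02 RPKM in alpha libraries and 0.739 to 1.06 RPKM in beta libraries, and as few as 7 reads in a library. Pseudogene copies of Mrpl23, Mrpl48 and Mrps36 are annotated, so reads of these genes may be split between copies and their levels are uncertain. Mrps25 of the small subunit averaged 2.44 ± 0.0555 RPKM in delta cells, 2.34 ± 0.0794 RPKM in alpha cells and 3.14 ± 0.211 RPKM in beta cells. Mrps36 had 2.49 and 2.41 RPKM in delta libraries, 4.10, 3.06 and 2.72 RPKM in alpha libraries and 2.75 to 3.66 RPKM in beta libraries. Leaving out Mrpl23 and Mrps36, the fewest reads of a member in a library were 111 and the most were 1907.

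**Figure D1:**
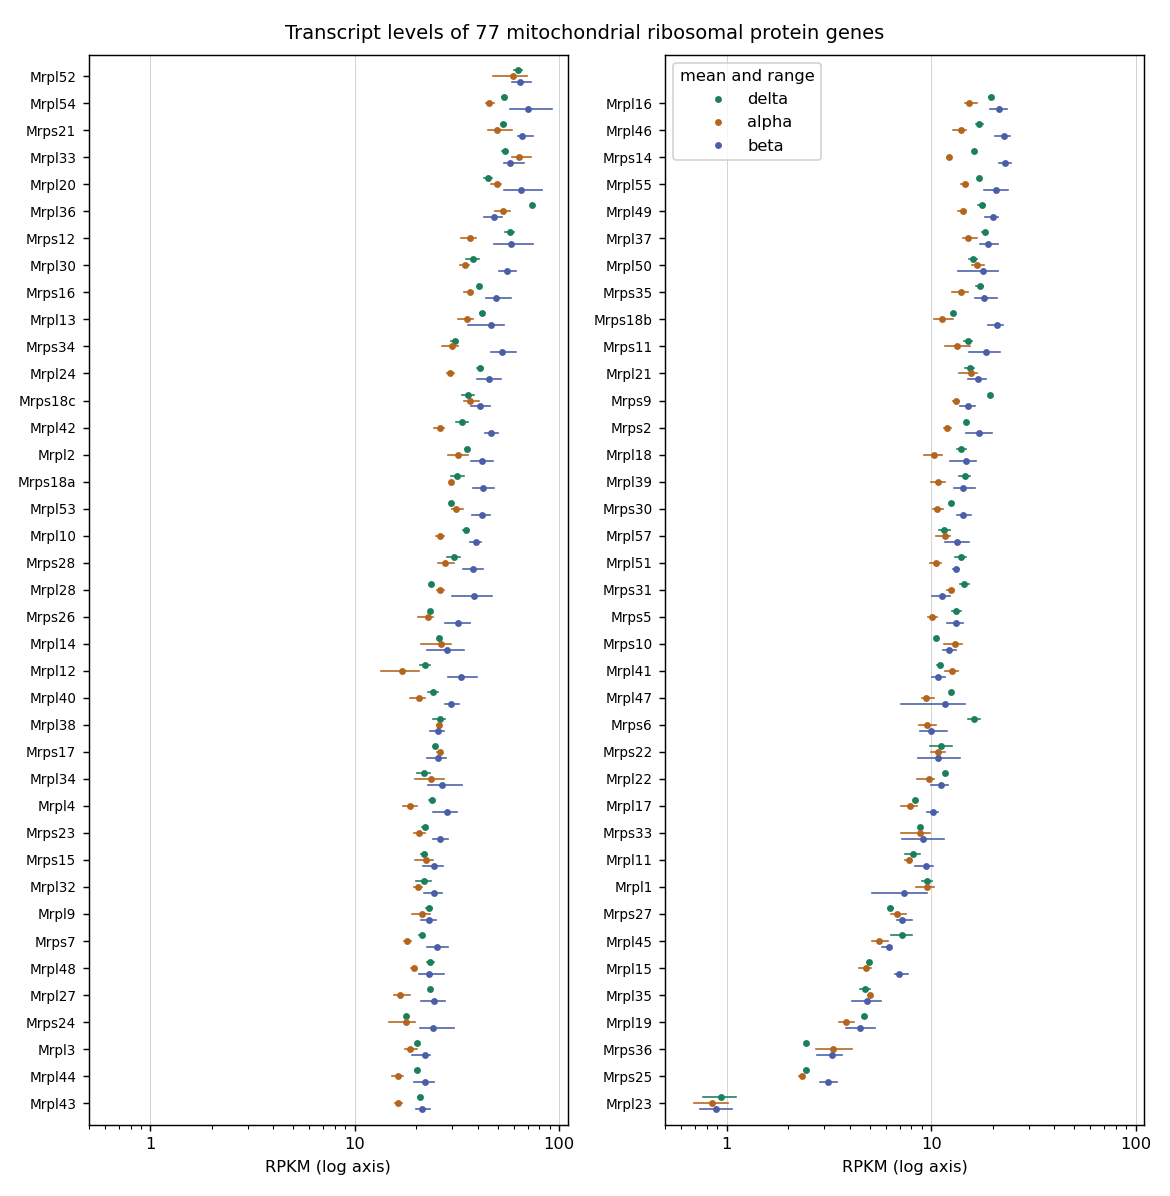
Mean RPKM (points) and range over libraries (bars) of the 77 members in delta, alpha and beta cells, on a log axis. The mean was highest in beta cells and lowest in alpha cells for 43 members, and highest in beta cells and lowest in delta cells for 12.

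Summed over the 77 members, delta libraries held 1698 and 1755 RPKM, alpha libraries 1618, 1554 and 1435 RPKM, and beta libraries 2184, 1921, 1965, 1985 and 1849 RPKM. The 3 cell types did not overlap as deposited, with beta libraries highest and alpha libraries lowest. With hormone reads left out, the sums were 1882 and 1964 RPKM in delta libraries, 1995 to 2343 RPKM in alpha libraries and 2243 to 3203 RPKM in beta libraries, so delta libraries then lay below alpha libraries. With median ratios, they were 1414 and 1504 in delta libraries, 1488 to 1822 in alpha libraries and 1751 to 2598 in beta libraries. Alpha libraries then overlapped both delta and beta libraries. In bulk samples, fewer cells of a type and less RNA per cell cannot be told apart. The large subunit's sum was 2.09 ± 0.0130 times the small subunit's in delta cells, 2.11 ± 0.0258 times in alpha cells and 2.04 ± 0.0518 times in beta cells (SD).

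Ratios of sums within a library do not depend on the scaling. Divided by the sum over 82 cytosolic ribosomal protein genes, the members came to 0.264 and 0.252 in delta libraries, 0.213, 0.213 and 0.230 in alpha libraries, and 0.249, 0.276, 0.274, 0.280 and 0.272 in beta libraries. Alpha libraries lay below all others. Delta libraries lay within the beta range only through beta replicate 1 (0.249), which is flagged below as far from the other beta libraries. Those, at 0.272 to 0.280, all lay above both delta libraries. A second ratio used the sum over 15 genes of the mitochondrial membranes and matrix, taken here to stand for mitochondrial mass, which was not measured. Divided by it, the members came to 2.63 and 2.70 in delta libraries, 2.995, 2.74 and 2.87 in alpha libraries, and 2.07, 2.04, 1.88, 1.57 and 1.82 in beta libraries. In this ratio beta libraries were lowest, without overlap. Abundant genes weigh most in a sum, and single genes of the mass list differed by as much as -1.70 (log2) in delta cells and -1.95 in alpha cells from beta cells. The median log2 differences lay closer together, at -0.36 and -0.45 for the mass list against -0.16 and -0.36 for the members.

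**Figure D2:**
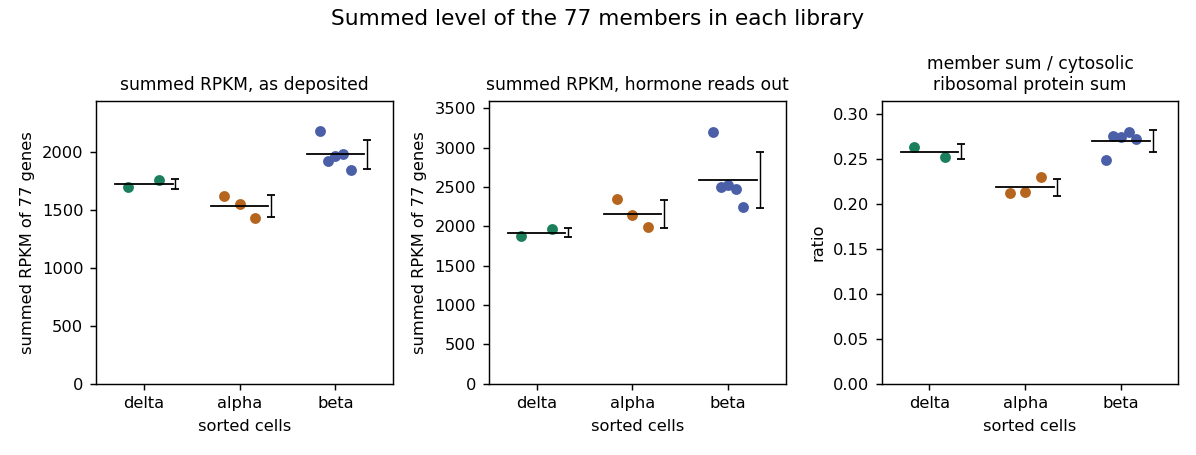
Summed level of the 77 members in each delta, alpha and beta library as deposited (RPKM), with hormone reads left out (RPKM) and as a ratio to cytosolic ribosomal protein genes; lines are means and bars 1 SD. As deposited alpha libraries reach 1435 to 1618 RPKM, below delta libraries, while with hormone reads left out delta libraries are lowest.

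Delta cells were first compared with beta cells. Of the 77 members, 22 were lower and 4 higher in delta cells (limma, adjusted p under 0.05), which is 28.6% and 5.19% of the members, against 13.3% lower and 37.4% higher over the 12700 genes tested. The members' median difference on the log2(RPKM + 1) scale was -0.16, against 0.25 over all genes tested, and 60 of the 77 differences were below 0. Delta libraries lay below all beta libraries for 30 members and above them for 4, against 16.4% and 46.4% of all genes. All 22 members stayed lower under both other scalings. Both lowered delta against beta cells over all genes, to medians of 0.06 and -0.0006, so keeping these calls was nearly fixed in advance. The count was 45 with hormone reads left out (22.0% of all genes) and 49 with median ratios (24.4%). Without delta replicate 1 the count was 5, namely Mrpl30, Mrpl53, Mrps14, Mrps18b and Mrps34.

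By subunit, 10 of 26 small subunit members were lower and 3 higher, and 12 of 50 large subunit members were lower and 1 higher. Mrps34 (chr17:24895116-24897502), a small subunit protein specific to mitochondria, had 29.6 and 32.1 RPKM in delta libraries, against 61.7, 53.2, 50.8, 51.2 and 46.4 RPKM in beta libraries. Both delta libraries lay below all beta libraries, with a log2 difference of -0.76 ± 0.11 (SE; limma adjusted p = 0.000493). Mrps34 shares 763 exon bases with Nme3 on the same strand and 1309 with Mapk8ip3 on the opposite strand, and the library kit does not mark strand. Neither neighbour passed the test here (adjusted p = 0.162 and 0.390).

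Mrps18b (chr17:35910379-35916389) is one of 3 related genes whose proteins take different places in the ribosome. It had 12.9 and 12.6 RPKM in delta libraries, against 20.5, 22.5, 18.9, 22.4 and 20.5 RPKM in beta libraries. Delta libraries were again below all beta libraries (-0.67 ± 0.11, limma adjusted p = 0.00111). Mrps18a, the relative in the large subunit, had 29.4 and 34.0 RPKM in delta libraries, against 48.0, 44.5, 42.5, 39.0 and 38.0 RPKM in beta libraries. It was lower without overlap (-0.41 ± 0.11, limma adjusted p = 0.0120), a call lost without delta replicate 1. Mrps18c, the other small subunit relative, had 38.1 and 33.3 RPKM in delta libraries, against 42.8, 37.8, 45.8, 37.1 and 42.3 RPKM in beta libraries. Its ranges overlap and it missed the test as deposited (-0.22 ± 0.09, adjusted p = 0.0774), but it was lower with hormone reads left out (-0.44, adjusted p = 0.00642) and with median ratios (-0.51, adjusted p = 0.00666).

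Mrpl30 (chr1:37890477-37898535) of the large subunit had 35.0 and 40.6 RPKM in delta libraries, against 61.8, 50.9, 58.8, 54.2 and 51.7 RPKM in beta libraries. The groups did not overlap (-0.55 ± 0.10, limma adjusted p = 0.00180). Mrps14 (chr1:160195215-160202170), a protein of the small subunit's head, had 16.3 and 16.2 RPKM in delta libraries, against 22.6, 21.4, 22.3, 24.5 and 23.6 RPKM in beta libraries. It too was lower without overlap (-0.47 ± 0.08, limma adjusted p = 0.00184). Mrpl28 (chr17:26123500-26126613) of the large subunit had 23.6 and 23.4 RPKM in delta libraries, against 46.8, 42.7, 35.9, 35.4 and 29.8 RPKM in beta libraries (-0.67 ± 0.15, limma adjusted p = 0.00469). The delta libraries were nearly equal, while beta libraries spread widely above them. The 22 differences ran from -0.25 for Mrps7 to -0.76 for Mrps34.

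The 4 members higher in delta cells were Mrpl36, Mrps6, Mrps9 and Mrps31. Mrpl36 (chr13:73328513-73332178), a very small large subunit protein, had 72.4 and 75.5 RPKM in delta libraries, against 50.5, 45.1, 50.2, 52.2 and 42.7 RPKM in beta libraries. Delta libraries were highest without overlap (0.60 ± 0.10, limma adjusted p = 0.00104). It alone of the 4 stayed higher with hormone reads left out (0.38, adjusted p = 0.0282), and with median ratios none of the 4 did (0.31, adjusted p = 0.0970, for Mrpl36). Mrps6 (chr16:92058270-92112227), of the small subunit's platform, had 15.2 and 17.3 RPKM in delta libraries, against 12.0, 10.5, 8.81, 9.16 and 9.37 RPKM in beta libraries. It was higher without overlap (0.65 ± 0.13, limma adjusted p = 0.00371). Mrps6 shares 159 exon bases on the same strand with Slc5a3, a myo-inositol transporter, which had 2.01 and 2.09 RPKM in delta libraries, against 0.332 to 0.725 RPKM in beta libraries and was higher as well (1.03, adjusted p = 0.000698). The part of the shared bases in the Mrps6 value was not tested.

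Mrps9 (chr1:42851233-42905683), of the small subunit's head, had 19.4 and 19.4 RPKM in delta libraries, against 15.4, 13.8, 15.1, 16.3 and 14.7 RPKM in beta libraries. Delta libraries lay above all beta libraries (0.34 ± 0.09, limma adjusted p = 0.0121). Mrps31, a small subunit protein specific to mitochondria, had 13.8 and 15.3 RPKM in delta libraries, against 10.1, 10.2, 11.7, 12.4 and 12.0 RPKM in beta libraries. It was higher without overlap (0.35 ± 0.11, limma adjusted p = 0.0266). Without delta replicate 1 only Mrpl36 and Mrps6 of the 4 were called, and without delta replicate 2 only Mrpl36.

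**Figure D3:**
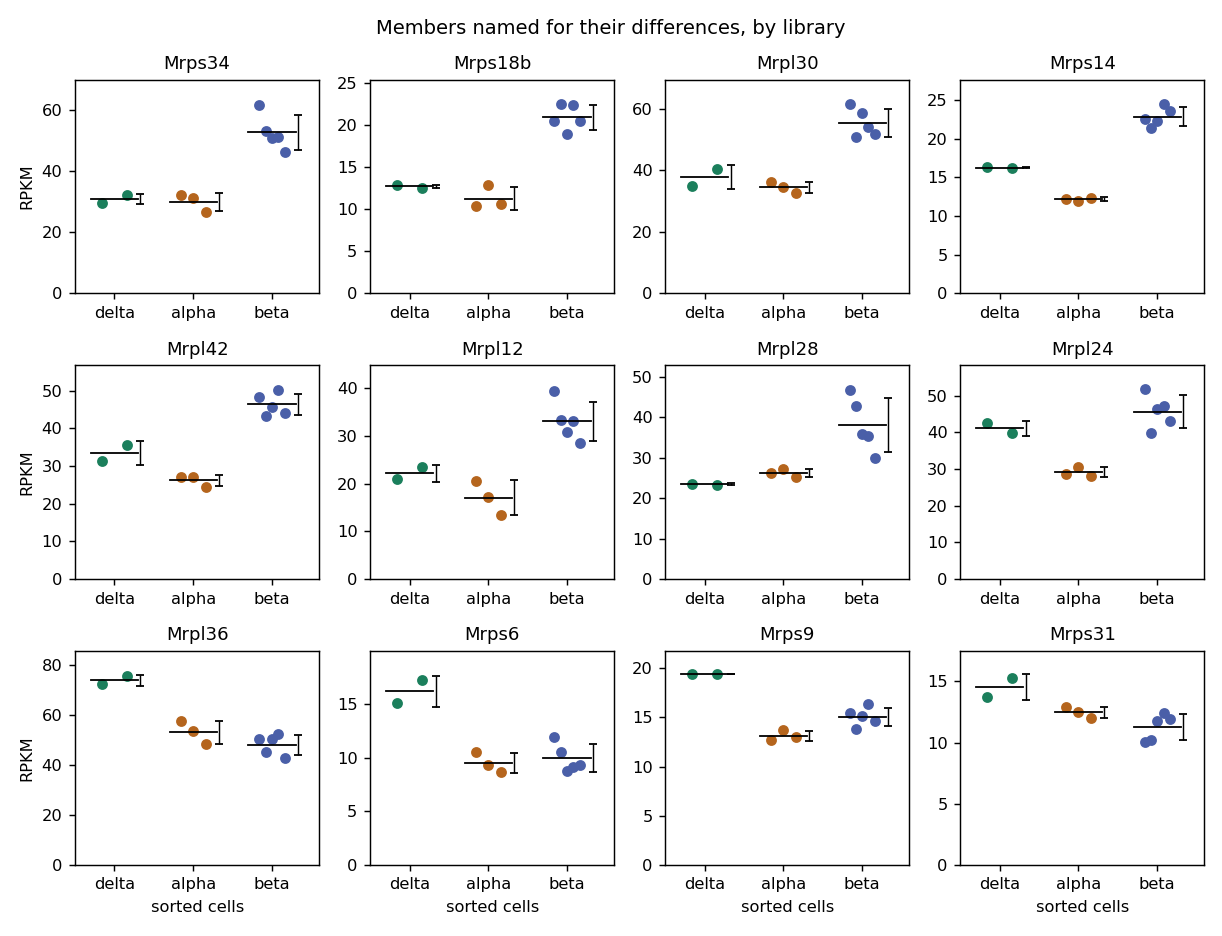
RPKM of 12 members in each delta, alpha and beta library, with axes from 0, lines for means and bars of 1 SD (n = 2, 3 and 5). Mrpl36, Mrps6, Mrps9 and Mrps31 have delta values above all beta values, and Mrps34, Mrps18b, Mrpl30, Mrps14, Mrpl42 and Mrpl12 have delta and alpha values below all beta values.

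Alpha cells were then compared with the same beta libraries. Of the 77 members, 45 were lower and 0 higher in alpha cells, which is 58.4% of the members lower, against 30.3% lower and 23.7% higher over all genes tested. By limma, 1 member was higher at an unadjusted p under 0.05. The members' median difference was -0.36, against -0.02 over all genes, and 66 of 77 differences were below 0. Alpha libraries lay below all beta libraries for 46 members and above them for 0, against 29.2% and 20.8% of all genes. The count of lower members was 35 with hormone reads left out (25.7% of all genes) and 40 with median ratios (29.0%), and 35 members were lower under all 3 scalings. Members higher in alpha cells then numbered 3 (Mrpl1, Mrpl41 and Mrps31) and 1 (Mrpl1), against 31.1% and 27.8% of all genes. Without alpha replicate 3, 30 members were lower, all of them among the 45.

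Both subunits took part, with 16 of 26 small subunit members and 29 of 50 large subunit members lower. Mrps14 had 12.2, 12.0 and 12.4 RPKM in alpha libraries, against 21.4 to 24.5 RPKM in beta libraries. The alpha libraries were close together and below all beta libraries (-0.85 ± 0.08, limma adjusted p = 1.80e-05). Mrpl42 (chr10:95480805-95501940), a large subunit protein specific to mitochondria, had 31.3 and 35.7 RPKM in delta libraries, 27.2, 27.0 and 24.4 RPKM in alpha libraries, and 48.2, 43.3, 45.7, 50.2 and 44.2 RPKM in beta libraries. Delta libraries lay between the others, and none of the 3 types overlapped. Mrpl42 was lower than in beta cells both in delta cells (-0.46 ± 0.10, limma adjusted p = 0.00395) and in alpha cells (-0.81 ± 0.09, limma adjusted p = 6.00e-05).

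Mrps34 had 32.0, 31.0 and 26.6 RPKM in alpha libraries, below all beta libraries (-0.83 ± 0.10, limma adjusted p = 0.000114). Of its neighbours, Nme3 was lower in alpha cells (-0.67, adjusted p = 0.00435) and Mapk8ip3 was higher (0.43, adjusted p = 0.0256). Mrps18b had 10.4, 12.8 and 10.6 RPKM in alpha libraries (-0.83 ± 0.10, limma adjusted p = 0.000116). Mrps18a had 29.7, 29.3 and 29.3 RPKM (-0.52 ± 0.10, limma adjusted p = 0.00172). Alpha libraries were below all beta libraries for both. Mrps18c had 40.5, 34.7 and 34.3 RPKM, overlapping the beta range, and missed the test (-0.21 ± 0.08, limma adjusted p = 0.0522). The difference between these related genes was not tested.

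Mrpl12 (chr11:120484613-120489065) encodes the stalk protein through which translation factors reach the ribosome, and is also known to bind the mitochondrial RNA polymerase. It had 20.9 and 23.4 RPKM in delta libraries, 20.6, 17.2 and 13.4 RPKM in alpha libraries, and 39.4, 33.4, 30.7, 33.1 and 28.5 RPKM in beta libraries. All delta and alpha libraries lay below all beta libraries, and alpha replicate 3 was the lowest of all. The difference from beta cells was -0.57 ± 0.15 in delta cells (limma adjusted p = 0.0129) and -0.97 ± 0.14 in alpha cells (limma adjusted p = 0.000315). The stalk and its base hold 4 members, Mrpl10, Mrpl11, Mrpl12 and Mrpl53, of which 2 (Mrpl12 and Mrpl53) fell in delta cells and 4 in alpha cells. Mrpl11 had the smallest of the 45 differences (-0.26) and lost its call in alpha cells under both other scalings. Mrpl10 averaged 35.1 ± 1.62 RPKM in delta cells, 26.2 ± 1.18 RPKM in alpha cells and 39.1 ± 2.10 RPKM in beta cells (SD).

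Few members had higher alpha values. Mrpl1, a large subunit protein, had 10.1 and 9.05 RPKM in delta libraries, 8.47, 10.3 and 9.71 RPKM in alpha libraries, and 6.19, 5.11, 8.14, 7.93 and 9.49 RPKM in beta libraries. The alpha and beta ranges overlap, and its alpha difference missed the test as deposited (0.35 ± 0.18, limma adjusted p = 0.128). Mrpl41 had 10.7 and 11.3 RPKM in delta libraries, 13.5, 12.5 and 11.7 RPKM in alpha libraries and 10.1 to 11.7 RPKM in beta libraries, and missed it as well (0.19 ± 0.08, limma adjusted p = 0.0835). Over the 3 comparisons of cell types as deposited, 28 members were called in none.

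Delta cells were also compared with alpha cells. As deposited, 15 of the 77 members were higher and 0 lower in delta cells, and the 19.5% of members called higher compares with 32.1% higher and 5.89% lower over all genes tested. By limma, 1 member was lower at an unadjusted p under 0.05. The members' median difference was 0.16, against 0.26 over all genes. Delta libraries lay above all alpha libraries for 37 members and below them for 8, against 60.0% and 11.0% of all genes. The direction depended on the scaling: the members' median was -0.14 with hormone reads left out and -0.13 with median ratios, where all genes had -0.02 and -0.01. Under these scalings 0 members were higher and 5 or 2 were lower, Mrps10 and Mrps17 under both. Over all genes 14.7% were higher and 11.1% lower with hormone reads left out, and 14.5% and 10.4% with median ratios. As deposited, the count of 15 became 2 without delta replicate 2, 8 without delta replicate 1 and 7 without alpha replicate 3.

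Mrps9 had the smallest adjusted p as deposited, with 19.4 and 19.4 RPKM in delta libraries, against 12.7, 13.7 and 13.1 RPKM in alpha libraries. Delta libraries were above all alpha libraries (0.53 ± 0.10, limma adjusted p = 0.00269). Mrpl24 (chr3:87919506-87923672) of the large subunit had 42.4 and 39.7 RPKM in delta libraries, 28.7, 30.6 and 28.2 RPKM in alpha libraries, and 51.7, 39.7, 46.2, 47.0 and 43.0 RPKM in beta libraries. Delta libraries were above alpha libraries (0.50 ± 0.10, limma adjusted p = 0.00417) and overlapped beta libraries. Mrps6 had 10.5, 9.34 and 8.67 RPKM in alpha libraries (delta minus alpha 0.72 ± 0.15, limma adjusted p = 0.00444). Mrpl36 had 57.5, 53.5 and 48.3 RPKM there (delta minus alpha 0.49 ± 0.11, limma adjusted p = 0.00653). With hormone reads left out the differences became 0.23 for Mrps9, 0.19 for Mrpl24, 0.43 for Mrps6 and 0.17 for Mrpl36, and none passed.

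**Figure D4:**
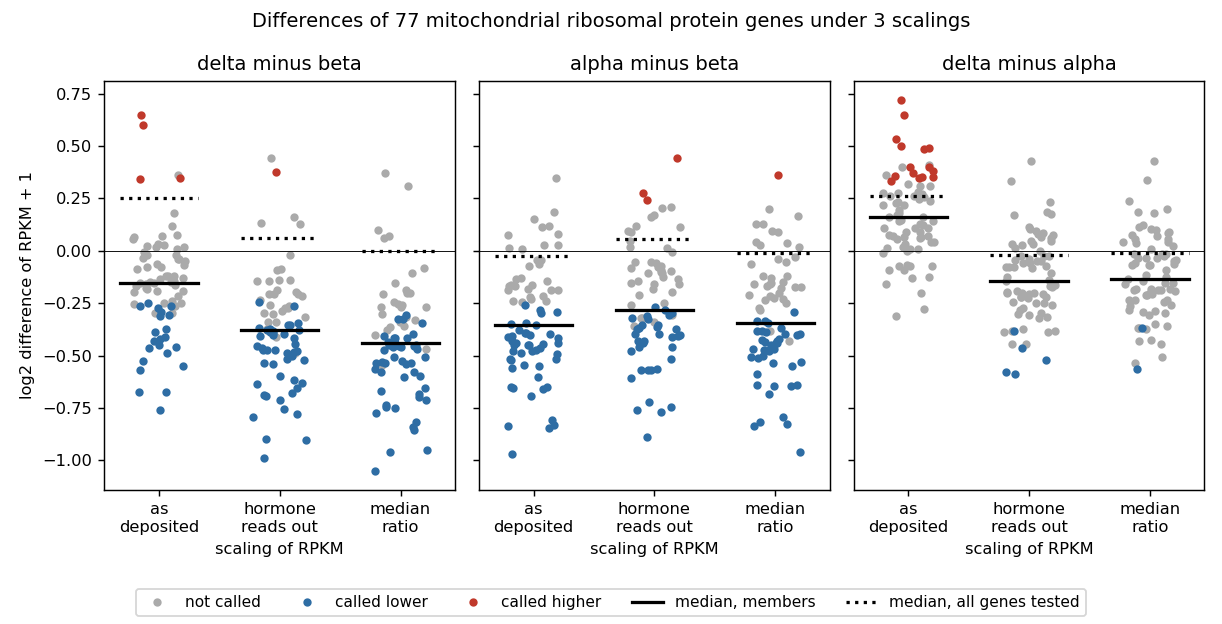
Log2 differences of RPKM + 1 for the 77 members (points) in 3 comparisons under 3 scalings; solid lines are the members' medians and dotted lines the medians over the 12700 genes tested. The members' median lies below that of all genes in each panel, and for delta minus alpha it is 0.16 as deposited, -0.14 with hormone reads left out and -0.13 with median ratios.

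The members' medians were also set against those of all genes. Each scaling divides all genes of a library by the same factor. The difference of medians must therefore stay nearly unchanged, and it is no test of the scaling. The members' median minus that of all genes was -0.41 as deposited, -0.44 with hormone reads left out and -0.44 with median ratios for delta minus beta. It was -0.33, -0.34 and -0.33 for alpha minus beta, and -0.10, -0.12 and -0.12 for delta minus alpha. Some library titles carry a letter b whose meaning the labels do not give. The titles of alpha replicate 1 and alpha replicate 2 differ only in this letter, as do those of beta replicate 4 and beta replicate 5. Whether such libraries share a pool is not labelled, and the fit counts each as a separate library. Among libraries without the letter, delta minus beta was below 0 for 56 of 77 members, and alpha minus beta for 61 of 77 with 1 alpha library. Among libraries with it, alpha minus beta was below 0 for 69 of 77 members, and there was no delta library. Between females and males 0 of the 77 members were called by limma, against 0.0157% higher and 0.0315% lower in females over all genes, and 5 had an unadjusted p under 0.05.

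Exon bases are shared with another protein-coding gene by 22 members, whose reads cannot be told apart there without strand. Of the other 55 members, 17 were lower and 2 higher in delta cells than in beta cells, and 31 were lower and 0 higher in alpha cells. Mrpl46 and Mrps11, both members, lie on opposite strands and share 173 exon bases. Mrpl46 of the large subunit had 16.5 and 17.9 RPKM in delta libraries, 14.8, 12.7 and 14.4 RPKM in alpha libraries and 20.4 to 24.3 RPKM in beta libraries, and was lower in delta cells (-0.37) and alpha cells (-0.65). Mrps11 of the small subunit passed in alpha cells (-0.44, limma adjusted p = 0.0220) and not in delta cells (-0.26, limma adjusted p = 0.174). Mrps25 shares 4590 exon bases with Nr2c2 on the opposite strand, a nuclear receptor gene that was higher in delta cells (1.05) and alpha cells (0.57), while Mrps25 was lower in both (-0.26 and -0.30).

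Promoters of 68 members were read from RefSeq, as windows of 250 bases before to 50 after the start on build GRCm38.p6, beside 9457 tested genes with such a window. Nuclear genes for mitochondrial proteins are known targets of nuclear respiratory factor 1, whose core motif reads GCGCA, any base, GCGC, and of GABP, an ETS factor that binds CCGGAAG. AAGATGGCG is a motif of the factor YY1. Read on both strands, the nuclear respiratory factor 1 motif was found for 13 members (19.1%, against 11.8% of tested genes), CCGGAAG for 25 (36.8%, against 19.8%) and AAGATGGCG for 8 (11.8%, against 3.64%). CCGGAAG and AAGATGGCG can overlap in the letters AAG. At least 1 of these motifs was found for 40 members (58.8%, against 31.4%). CACGTG was found for 5 members (7.35%, against 12.0%), CCAAT for 27 (39.7%, against 42.3%) and TATAAA for 5 (7.35%, against 8.37%). A match describes letters and is not a shown binding site.

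The stretches below lie before the start and outside annotated exons. Mrpl12, Mrpl17 and Mrps18a are shown as members lower in both delta and alpha cells, and Mrpl52 as the highest member, called in no comparison. Capitals mark the nuclear respiratory factor 1 motif, here as its complement, in Mrpl12 (chr11:120484387-120484612, plus strand), beginning 81 bases before the start. In Mrpl17 (chr7:105811100-105811337, minus strand) they mark the same motif and CCGGAAG, beginning 49 and 237 bases before the start. They mark CCGGAAG in Mrps18a (chr17:46110754-46110985, plus strand), 26 bases before the start, and its complement CTTCCGG in Mrpl52 (chr14:54426659-54426908, plus strand), 47 bases before.
Mrpl12: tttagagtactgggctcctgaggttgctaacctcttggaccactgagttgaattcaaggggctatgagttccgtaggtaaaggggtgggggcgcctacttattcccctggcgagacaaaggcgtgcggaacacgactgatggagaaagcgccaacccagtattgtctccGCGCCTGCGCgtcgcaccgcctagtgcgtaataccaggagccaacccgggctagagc
Mrpl17: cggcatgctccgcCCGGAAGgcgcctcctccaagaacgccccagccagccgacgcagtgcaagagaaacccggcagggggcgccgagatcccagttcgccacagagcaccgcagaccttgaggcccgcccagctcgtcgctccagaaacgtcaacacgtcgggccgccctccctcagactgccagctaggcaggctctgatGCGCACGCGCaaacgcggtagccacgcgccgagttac
Mrps18a: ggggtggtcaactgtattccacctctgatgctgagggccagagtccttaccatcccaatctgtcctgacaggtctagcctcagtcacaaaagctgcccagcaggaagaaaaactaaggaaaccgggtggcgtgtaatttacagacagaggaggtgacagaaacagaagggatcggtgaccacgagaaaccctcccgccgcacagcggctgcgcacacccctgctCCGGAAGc
Mrpl52: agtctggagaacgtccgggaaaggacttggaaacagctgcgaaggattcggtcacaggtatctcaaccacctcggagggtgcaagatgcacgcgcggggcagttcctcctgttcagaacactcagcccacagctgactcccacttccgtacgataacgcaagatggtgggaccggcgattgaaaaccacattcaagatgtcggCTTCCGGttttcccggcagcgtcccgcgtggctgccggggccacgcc

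Of the 13 members with the nuclear respiratory factor 1 motif, 5 were lower in delta cells and 7 in alpha cells than in beta cells, and of the 55 without it 13 and 31 were. Of the 25 members with CCGGAAG, 7 were lower in delta cells and 13 in alpha cells, and of the 43 without it 11 and 25 were. These counts are a description and were not tested.

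Among 8 tested activators of nuclear genes for mitochondria, in delta cells 3 fell and 2 rose, and in alpha cells 2 fell and 1 rose, relative to beta cells. Myc, Nrf1 and Esrra fell in delta cells, and Gabpb1, which encodes another subunit of GABP, and Gabpa rose. In alpha cells Nrf1 and Myc fell and Gabpb1 rose. Activators higher in delta cells numbered 1 with hormone reads left out and 0 with median ratios, while 3 were lower under both. In delta cells 13.3% of all genes tested fell and 37.4% rose, and in alpha cells 30.3% fell and 23.7% rose, which is the background for this list and for those that follow. Of the activators, 0 were called in delta cells without delta replicate 1, and 1 was lower and 1 higher without delta replicate 2. In alpha cells 1 was lower and 0 higher without alpha replicate 3, while 4 were higher under both other scalings. Nrf1, which encodes nuclear respiratory factor 1, had 5.84 and 5.64 RPKM in delta libraries, 4.21, 5.20 and 3.84 RPKM in alpha libraries, and 8.82, 8.08, 8.78, 11.1 and 8.31 RPKM in beta libraries. Delta and alpha libraries lay below all beta libraries. Nrf1 was lower in delta cells (-0.57 ± 0.14, limma adjusted p = 0.0100) and in alpha cells (-0.90 ± 0.13, limma adjusted p = 0.000360), also under both other scalings, though its delta call was lost without either delta library. Gabpa, the DNA-binding subunit of GABP, had 14.4 and 13.0 RPKM in delta libraries, 8.42, 12.2 and 10.8 RPKM in alpha libraries, and 4.50, 5.59, 8.80, 9.71 and 11.1 RPKM in beta libraries. Delta libraries were highest, and its call in delta cells (0.80 ± 0.29, limma adjusted p = 0.0444) was lost under both other scalings. Yy1 missed the test in delta cells (0.43, limma adjusted p = 0.0507) and in alpha cells (0.25, limma adjusted p = 0.167).

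Proteins of the mitochondrial ribosome whose symbols fall outside the rule were read beside the members. Of 6 tested, in delta cells 4 fell and 0 rose, and in alpha cells 4 fell and 0 rose, relative to beta cells. Aurkaip1 of the small subunit had 34.1 and 34.8 RPKM in delta libraries, 26.9, 23.9 and 24.7 RPKM in alpha libraries, and 58.5, 51.1, 51.1, 51.8 and 46.0 RPKM in beta libraries. None of the types overlapped, and it was lower in delta cells (-0.58 ± 0.10, limma adjusted p = 0.00120) and alpha cells (-1.03 ± 0.09, limma adjusted p = 1.27e-05). Chchd1, Gadd45gip1 and Ict1 were lower in both as well. Dap3, a GTP-binding small subunit protein, had 13.3 and 11.4 RPKM in delta libraries, 14.2, 15.3 and 15.0 RPKM in alpha libraries and 13.1 to 14.5 RPKM in beta libraries, and neither it nor Ptcd3 was called against beta cells. Without delta replicate 1 the count in delta cells was 1, Aurkaip1, and without delta replicate 2 it was 2.

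Of 13 mitochondrial translation factors, in delta cells 1 fell and 1 rose, and in alpha cells 7 fell and 2 rose, relative to beta cells. Mrrf, which recycles ribosomes after termination, had 8.47 and 7.59 RPKM in delta libraries, 5.49, 5.50 and 4.99 RPKM in alpha libraries, and 8.14, 8.31, 9.36, 9.35 and 8.59 RPKM in beta libraries. Alpha libraries were lowest without overlap (-0.64 ± 0.09, limma adjusted p = 0.000352). Mtrf1l, a release factor, had 5.57 and 4.91 RPKM in delta libraries, 4.37, 5.47 and 5.40 RPKM in alpha libraries and 2.04 to 3.95 RPKM in beta libraries, and was higher in delta cells (0.73) and alpha cells (0.71). The count of lower factors in delta cells was 5 with hormone reads left out and 6 with median ratios, and in alpha cells it was 3 without alpha replicate 3. Without delta replicate 1, 0 factors were called in delta cells.

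Of 21 genes for assembly of the ribosome and modification of its RNA, in delta cells 2 fell and 1 rose, and in alpha cells 10 fell and 1 rose. Tfb1m, which methylates the small subunit's RNA, had 6.83 and 7.02 RPKM in delta libraries, 4.45, 4.71 and 4.21 RPKM in alpha libraries, and 6.63, 7.61, 7.22, 7.61 and 7.05 RPKM in beta libraries. Alpha libraries were lowest (-0.59 ± 0.09, limma adjusted p = 0.000540) and delta libraries lay within the beta range. The count of lower genes in delta cells was 7 with hormone reads left out and 10 with median ratios, and in alpha cells it was 5 without alpha replicate 3. Without delta replicate 1, 0 genes of this list were called in delta cells, and without delta replicate 2, 1 was lower and 1 higher.

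Of 22 mitochondrial aminoacyl-tRNA synthetases and related enzymes, which load tRNAs, in delta cells 2 fell and 5 rose, and in alpha cells 7 fell and 4 rose. Nars2, for asparagine, had 4.37 and 4.69 RPKM in delta libraries, 4.34, 4.51 and 5.01 RPKM in alpha libraries, and 7.16, 8.35, 8.94, 9.58 and 9.47 RPKM in beta libraries. It was lower in delta cells (-0.79 ± 0.11, limma adjusted p = 0.000436) and alpha cells (-0.74 ± 0.10, limma adjusted p = 0.000252). Qrsl1, a subunit of the enzyme that makes glutaminyl-tRNA, had 9.27 and 8.01 RPKM in delta libraries, 2.83, 2.50 and 3.41 RPKM in alpha libraries, and 5.85, 6.79, 6.55, 6.68 and 6.66 RPKM in beta libraries. None of the types overlapped, and its delta minus alpha difference (1.29 ± 0.13, limma adjusted p = 6.76e-05) stayed called under both other scalings. In delta cells the list had 7 lower and 1 higher under each other scaling. Without delta replicate 1 it had 1 lower and 0 higher there, and without delta replicate 2 it had 1 lower and 2 higher. In alpha cells it had 4 lower and 3 higher without alpha replicate 3.

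Of 17 tested genes of mitochondrial transcription, DNA replication and RNA handling, in delta cells 0 fell and 4 rose, and in alpha cells 2 fell and 3 rose. Polg and Polg2, subunits of the mitochondrial DNA polymerase, were among those that rose in delta cells, and Polg among those in alpha cells. Under each other scaling 3 were lower and 1 higher in delta cells. The count of 4 was 1 without delta replicate 1 and 0 without delta replicate 2. In alpha cells 0 were lower and 5 higher with hormone reads left out, 0 lower and 4 higher with median ratios, and none in either direction without alpha replicate 3. Of 79 tested cytosolic ribosomal protein genes, in delta cells 7 fell and 3 rose, and in alpha cells 9 fell and 10 rose, with medians of -0.14 and 0.02. Their lower count in delta cells was 26 with hormone reads left out, 29 with median ratios and 0 without delta replicate 1. In alpha cells 4 were lower and 6 higher without alpha replicate 3. Of the 15 genes for mitochondrial mass, 8 were lower in delta cells and 12 in alpha cells, and 0 were higher. The count in delta cells was 4 without delta replicate 1 and 5 without delta replicate 2, and that in alpha cells was 7 without alpha replicate 3. Lonp1, a matrix protease, had 39.3 and 34.5 RPKM in delta libraries, 32.1, 39.6 and 32.2 RPKM in alpha libraries, and 128, 110, 114, 150 and 108 RPKM in beta libraries. Delta and alpha libraries lay far below all beta libraries (-1.70 ± 0.14 in delta cells and -1.81 ± 0.13 in alpha cells, limma adjusted p = 1.53e-05 and 4.45e-06). Transcripts encoded by mitochondrial DNA were not analysed here.

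**Figure D5:**
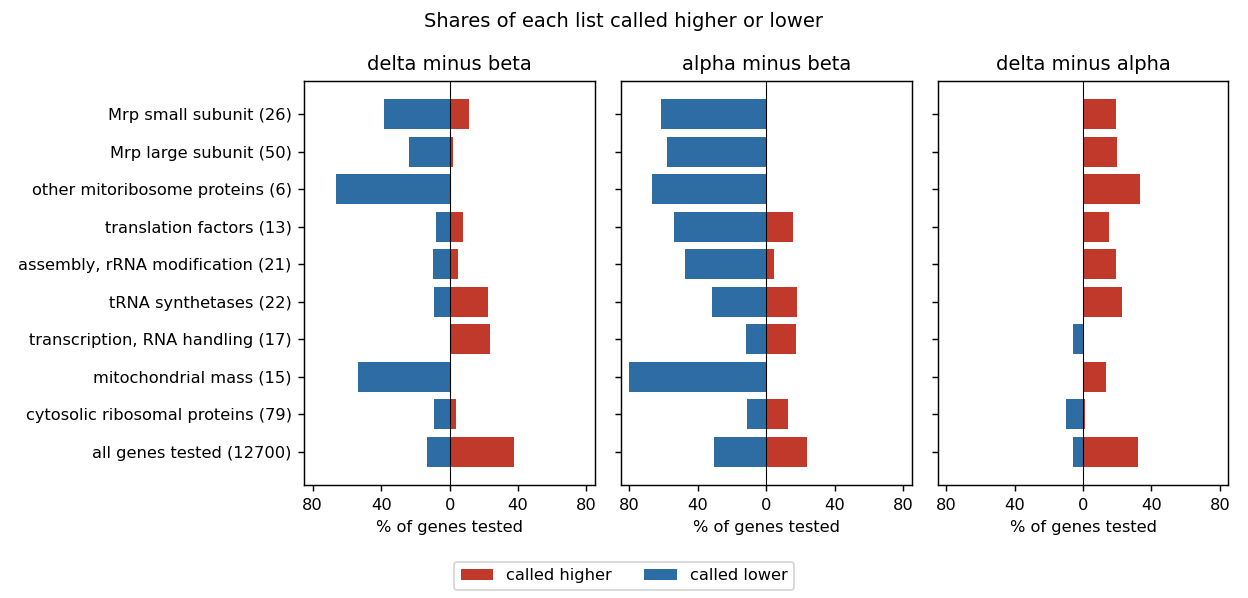
Share of the tested genes of each list (%) called lower or higher in 3 comparisons by limma at an adjusted p under 0.05. The list labelled transcription, RNA handling also holds genes of mitochondrial DNA replication. In alpha minus beta, 16 of 26 small and 29 of 50 large subunit members are lower and 0 higher, against 30.3% lower and 23.7% higher over all genes tested.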

How the data were processed

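RNA-seq libraries were made with the TruSeq RNA v2 kit, per the labels' protocols. STAR 2.4, featureCounts, edgeR 3.12.0 and build GRCm38.p3 are named in the submitters' processing notes, without their settings. The authors deposited 1 table of RPKM values per gene and library. Read totals were recovered from the steps between low values, with a tolerance of 0.05 reads for a whole number. The tests used limma 3.58.1 (R 4.3.3) on the log2(RPKM + 1) scale, with an intensity trend and terms for cell type and sex over all 10 libraries. Genes with at least 1 RPKM in at least 2 libraries were kept, which left 12700, and Benjamini-Hochberg adjustment ran over all of them. The residual degrees of freedom were 6. A fold change on this scale understates that of low genes. Tables and figures were made with Python 3.11.15, pandas 2.3.3 and matplotlib 3.10.9, and the fit was tested on simulated data. Alternatives were another pseudocount, no filter, other scalings, other model terms, the pair of types alone, leaving out each library and a block of neighbouring title numbers. Members named by rule were, in each comparison and direction, the 4 called with the smallest adjusted p whose libraries did not overlap, the 3 highest and 3 lowest by mean RPKM, and the Mrps18 genes. From each other list the rule took up to 3 called genes per direction and comparison and up to 2 uncalled ones. Other members named, such as Mrpl1, Mrpl10, Mrpl17, Mrpl41 and Mrpl46, were picked after their values were seen. The members and lists were chosen with earlier results of these data known. Gene positions are those of the GENCODE vM21 annotation of GRCm38.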

Additional observations from a re-analysis of the deposited data

Results flagged for a closer look

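In 22 sets of 5 beta libraries checked for a library far from the others, 2 had one by Dixon's criterion of 0.71, where chance gives about 1 in 20. Mrps21 had 74.77 RPKM in beta replicate 1, and its gap to the next library was 0.887 of the range. The members' sum over that of cytosolic ribosomal protein genes was 0.249 in beta replicate 1, the lowest of the beta libraries, with a gap of 0.748 of the range. The alpha minus beta difference was also tested for a dependence on sex, without the delta libraries. By limma 0 of 77 members were called, with 0 at an unadjusted p under 0.05. Only 1 alpha library was female, so a dependence could easily be missed.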

How the results depend on the processing

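With hormone reads left out of the total, delta minus beta had 1 member higher and 45 lower (median -0.38), alpha minus beta had 3 higher (median -0.28), and delta minus alpha had 0 higher and 5 lower (median -0.14). With median ratios, delta minus beta had 0 higher and 49 lower (median -0.44), alpha minus beta had 1 higher, and delta minus alpha had 0 higher and 2 lower (median -0.13). A term for the title letter b gave 1 member lower in delta than in alpha cells. The mean summed level was 1923 in delta, 2160.5 in alpha and 2590.8 in beta libraries with hormone reads left out, and 1458.9 in delta libraries with median ratios. The cause of these shifts was not tested beyond the change of scale. Leaving out each library gave 1 to 4 members higher and 5 to 19 lower for delta minus beta (median -0.21 to -0.13), 30 to 49 lower for alpha minus beta (median -0.37 to -0.34), and 2 to 17 higher for delta minus alpha (median 0.10 to 0.26). For single named members, 338 values kept their side of the threshold under the other planned settings, 31 lost the call and 9 gained it. With each library left out, 499 kept it, 39 lost the call and 2 gained it. In neither set did a value called in either fit change its sign. A change of sign between uncalled values was counted as kept. Mrpl30 in delta minus alpha, for example, went from 0.14 as deposited to -0.17 with hormone reads left out. Replicate numbers follow accession order and pair no libraries, and the labels name no pairs. A replicate block for 4 pairs of neighbouring title numbers of one sex was added after seeing the data, over 8 libraries with 2 residual degrees of freedom. It gave 24 lower and 6 higher for delta minus beta, 35 lower and 0 higher for alpha minus beta, and 5 higher and 1 lower for delta minus alpha. Of the named values 47 kept their side of the threshold, 6 lost the call and 1 gained it. Deviations from the cell type mean, over genes, correlated within the pairs at 0.001, 0.372, 0.269 and 0.464. With sex removed too, these were -0.613, 0.282, 0.115 and 0.273. For delta replicate 2, alpha replicate 2 and alpha replicate 3, the paired beta library had the highest correlation of the beta libraries. For delta replicate 1 another had it. The deviations of the 2 delta libraries from their mean are equal and opposite, also with sex removed. A beta library that correlates best with 1 of them must correlate worst with the other, so the delta pairs do not count as 2 separate observations. Whether the numbers pair libraries is thus not settled, and the main fit has no term for a shared pool. With 2 delta libraries, calls in delta cells rest on few samples.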
